A study of Homo sapiens with 9 samples.

Results

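The genes examined are 9 ligands that tumour cells show to T cells and natural killer (NK) cells, taken from the table by gene symbol. They make up 9 of the 58735 genes in the table, and 8 of the 9 passed the filter on low values described below. Their mRNA was measured by RNA-sequencing in HCT116, an established line from a human colorectal carcinoma, with 3 libraries in each of 3 groups. A20-WT are the HCT116 cells labelled WT, which the paper calls wild type. Whether they carry a control vector is not given in the sources used here. A20-KO are HCT116 cells labelled as A20 knockout, and the Methods describe guide RNAs against A20 delivered by lentivirus with puromycin selection. A20-OE, which the paper calls RE, are A20-KO cells in which A20 was put back, and a CMV-driven, Flag-tagged A20 vector is the one the Methods list. The labels name no other agent for any group, and whether the edited cells are 1 clone or a pool is not given in the sources used here. Replicate numbers come from the labels, and nothing says that the libraries came from separate cultures, so the p-values measure the spread between these libraries, which may be technical.

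A20, the product of TNFAIP3, is a ubiquitin-editing enzyme that restrains NF-κB signalling. Killer lymphocytes read the surface of a tumour cell through paired receptors. NKG2D is an activating receptor of NK cells and CD8+ T cells, and its ligands MICA, MICB and ULBP2 are made by stressed or transformed cells. PVR (CD155) and NECTIN2 (CD112) are shared ligands: the activating receptor DNAM-1 and the inhibitory receptor TIGIT compete for them. Of the further receptors, CD96 binds PVR and PVRIG binds NECTIN2. CD274 (PD-L1) binds the inhibitory receptor PD-1, CD276 (B7-H3) is a related B7 protein, LGALS9 (galectin-9) is a ligand of TIM-3, and TNFRSF14 (HVEM) binds BTLA and CD160. Colorectal carcinoma cells carry many of these ligands, and the balance between activating and inhibitory ones is a theme of tumour immune evasion.

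MICA and MICB are neighbouring, duplicated genes, so their promoters are shown first, with that of CD274 as the best known checkpoint ligand. The reference bases are from RefSeq on GRCh38.p14, plus strand, and cover the 250 bases before the RefSeq transcription start. All 9 ligands matched a RefSeq promoter. In MICA and MICB the capitals mark the heat shock element core GAANNTTC and the CCAAT box on the reverse strand (ATTGG). In CD274 they mark the interferon regulatory factor (IRF) core AANNGAAA on either strand and the STAT site TTCNNNGAA.
MICA, chr6:31403345-31403594: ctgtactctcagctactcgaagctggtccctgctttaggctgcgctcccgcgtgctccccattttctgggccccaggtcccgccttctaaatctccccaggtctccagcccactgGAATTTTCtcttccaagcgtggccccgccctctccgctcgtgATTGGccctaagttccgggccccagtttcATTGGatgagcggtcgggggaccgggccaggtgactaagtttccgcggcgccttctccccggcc
MICB, chr6:31497895-31498144: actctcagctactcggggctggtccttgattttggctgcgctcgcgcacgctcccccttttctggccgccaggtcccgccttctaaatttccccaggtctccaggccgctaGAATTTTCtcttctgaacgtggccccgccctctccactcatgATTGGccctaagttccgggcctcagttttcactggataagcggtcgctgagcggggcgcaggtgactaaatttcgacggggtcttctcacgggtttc
CD274, chr9:5450292-5450541: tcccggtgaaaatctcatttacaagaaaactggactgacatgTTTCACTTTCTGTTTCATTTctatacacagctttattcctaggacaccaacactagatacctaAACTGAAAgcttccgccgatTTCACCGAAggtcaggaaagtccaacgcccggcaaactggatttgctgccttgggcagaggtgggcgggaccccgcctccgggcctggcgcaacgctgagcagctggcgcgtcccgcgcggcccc
The upstream bases of MICA and MICB were identical in 210 of 254 aligned columns, or 82.7%, against 40.4% for MICA and ULBP2 and 47.7% for PVR and NECTIN2. The heat shock core starts at -135 from the start in MICA and at -139 in MICB, and its letters were found in 6.77% of the 35116 RefSeq promoters of 300 bases. MICA holds the reverse CCAAT box at -93 and -64, and MICB only at -97, a motif found in 34.6% of promoters. The last bases of the heat shock core in both genes, TTTC, are also the first bases of a reverse IRF core, TTTCTCTT. CD274 has 3 overlapping reverse IRF cores from -208 and a forward one at -145, and IRF cores were found in 22.8% of promoters. Its STAT site at -125 is a motif of 7.66% of promoters. A 10-base NF-κB site, searched on both strands, was found in 7.73% of all promoters and, among the 9 ligands, in windows of CD276 and TNFRSF14. These matches describe letters in the reference and not binding in these cells. The RefSeq starts of MICA and MICB lie inside the gene spans of the expression table, which begin further upstream.

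Expression was deposited as FPKM, fragments scaled to gene length and to a depth set for each library, so levels can be compared between genes. That depth was not the plain sum of reads: reads on genes were 0.95 to 1.066 times the depth implied by the values, which already carried a scaling between libraries. Whole reads could be recovered from 100% of the values, and the 9 libraries held 23406222 to 24963691 reads on genes. Mitochondrial genes took 7.52% to 10.11% of the reads in A20-WT, 9.18% to 11.86% in the A20-KO-labelled libraries and 11.97% to 13.95% in A20-OE. Genes averaging 0.1 FPKM or more, 21636 in all, were tested with limma on log2(FPKM + 0.1), and a gene passed at an adjusted p under 0.05 over all of them. Fold changes on this scale understate the change of genes with low values. TNFAIP3, the target, was at 0.869, 0.8 and 0.736 FPKM in the 3 A20-WT libraries, at 1.93, 2.16 and 1.04 in the A20-KO-labelled libraries, and at 58.7, 66.5 and 56.5 in A20-OE. Its mRNA was thus not lower in the A20-KO-labelled libraries (log2 fold change 0.95, limma adjusted p = 0.018), which neither shows nor denies loss of the protein. That call was lost without A20-WT replicate 2, A20-KO replicate 1 or A20-KO replicate 2 (limma adjusted p 0.054, 0.07 and 0.057). The mRNA gives no check of the knockout label, so the group is named by its label throughout. Of the intestinal epithelial markers 7 of 10 reached a mean of 1 FPKM in every group, led by KRT19, while CDX1, VIL1 and LGR5 did not.

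Of the 9 ligands, 3 rose and 2 fell in the A20-KO-labelled libraries against A20-WT, 3 did not pass and 1 was below the filter. ULBP2, NECTIN2 and LGALS9 were the 3 that rose, and PVR and MICB the 2 that fell. Among all genes tested, 11.3% were higher and 11% lower in this comparison. In A20-OE against the A20-KO-labelled libraries, none rose and 2 fell, MICA and MICB, where 4.43% of all genes were higher and 4.54% lower. The count of 0 for rises was also 0 at an unadjusted limma p under 0.05 and with limma-voom on the recovered reads. In A20-OE against A20-WT, 3 again rose, ULBP2, NECTIN2 and LGALS9, and 2 fell, PVR and MICB, beside 15.7% of all genes higher and 15.4% lower. With the study's additional limit of a 2-fold change, 0, 0 and 1 ligand passed in the 3 comparisons, beside 6.99%, 2.39% and 11.9% of all genes. That limit was set on log2(FPKM + 0.1), and with a pseudocount of 0.01 LGALS9 also passed it against A20-WT, at 1.19 in the A20-KO-labelled libraries and 1.01 in A20-OE. The median log2 fold change of the 8 tested ligands was 0.35, -0.12 and 0.18 in that order, and that of all genes tested -0.005, 0.013 and 0.025. These comparisons share libraries, so a gene that is high or low in 1 group moves in both comparisons that use it.

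**Figure D1:**
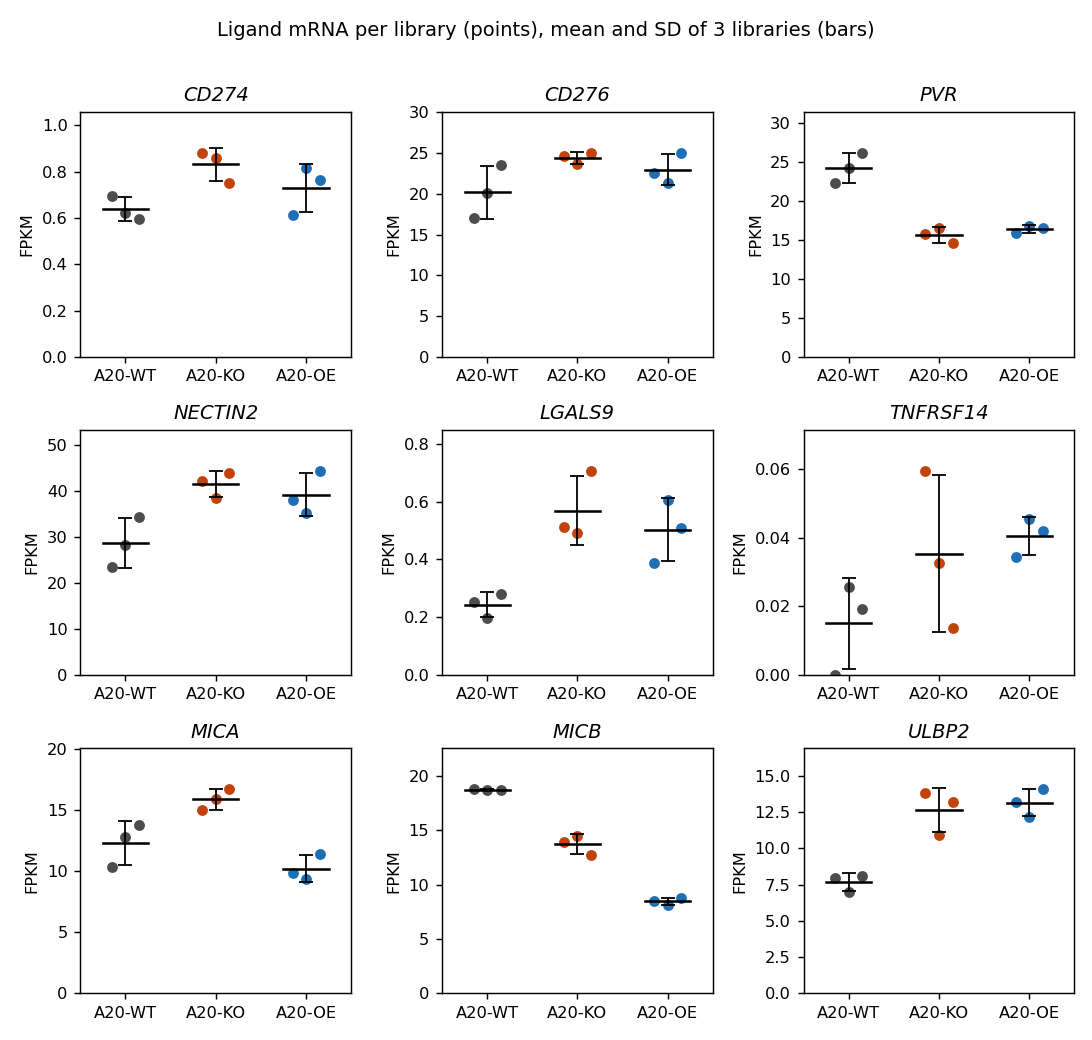
FPKM (y axis, linear, from 0) of each of the 9 ligands in every library (points) by group (x axis), with the mean and SD of 3 libraries as bars. MICB falls from 18.7 through 13.7 to 8.43 without overlap between groups, while ULBP2 and PVR separate A20-WT from the other 2 groups.

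**Figure D2:**
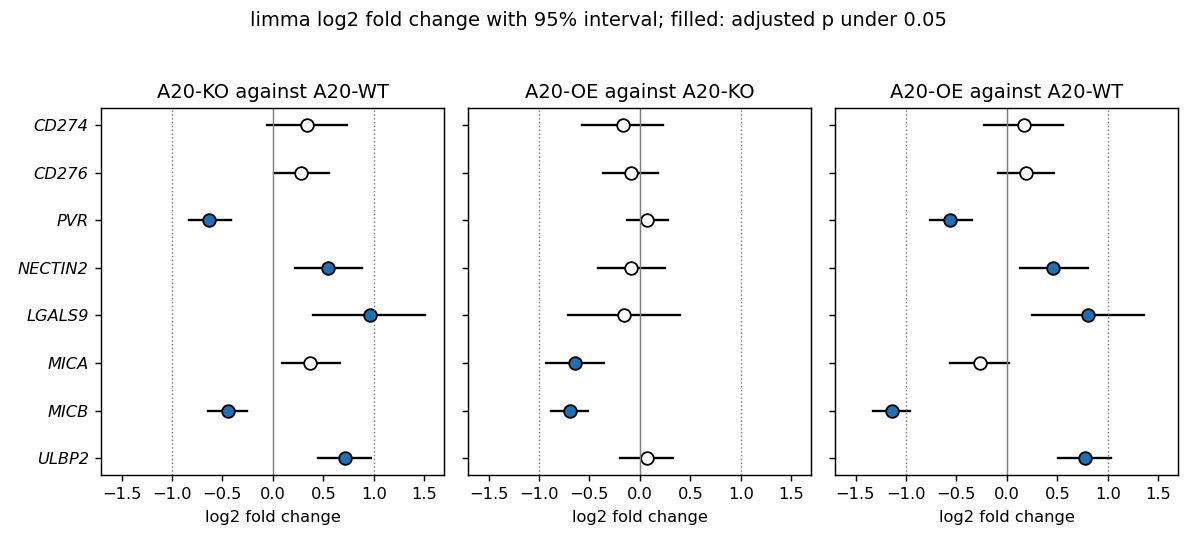
limma log2 fold change (x axis) with its 95% interval for the 8 tested ligands (y axis) in each comparison. Filled points have an adjusted p under 0.05 and the dotted lines mark a log2 fold change of 1 in either direction, which MICB alone passed, at -1.14 in A20-OE against A20-WT.

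Of MICA, MICB and ULBP2, the 3 NKG2D ligands among the 9, MICB had the largest log2 fold change over the 3 comparisons. MICB (ENSG00000204516, chr6:31494881-31511124, plus strand) encodes a membrane-spanning stress ligand within the MHC region. It stood at 18.8, 18.7 and 18.7 FPKM in A20-WT, at 13.9, 14.5 and 12.7 in the A20-KO-labelled libraries, and at 8.44, 8.14 and 8.73 in A20-OE. No library of one group overlapped another, and the A20-WT libraries were nearly level (18.7 ± 0.0393, SD, n = 3). MICB fell by 26.8% in the A20-KO-labelled libraries against A20-WT (log2 fold change -0.45, SE 0.08, limma adjusted p = 0.0055). In A20-OE it fell by a further 38.6% against the A20-KO-labelled libraries (log2 fold change -0.69, SE 0.08, limma adjusted p = 0.0028). The 2 steps add to a log2 fold change of -1.14 (95% interval -1.33 to -0.96, limma adjusted p = 3e-05) in A20-OE against A20-WT. Each group's value rests on 1678 to 3923 reads, and MICB passed in all 3 comparisons under every alternative that kept the same threshold. In bulk RNA, less mRNA per cell and fewer cells that make it cannot be told apart.

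MICA (ENSG00000204520, chr6:31399784-31415315, plus strand), the paralog of MICB, had a different order of groups. Its level was 10.3, 12.8 and 13.8 FPKM in A20-WT, 15.0, 15.9 and 16.7 in the A20-KO-labelled libraries, and 9.81, 9.32 and 11.4 in A20-OE. Every A20-KO-labelled library lay above every other library, and the A20-WT and A20-OE libraries overlapped. MICA fell by 36.0% in A20-OE against the A20-KO-labelled libraries (log2 fold change -0.64, SE 0.13, limma adjusted p = 0.019). That call was lost without A20-KO replicate 1, 2 or 3 (limma adjusted p 0.056, 0.051 and 0.061) and without A20-OE replicate 1 or 2 (0.085 and 0.083). It was also lost with no filter on low values (limma adjusted p 0.069). Against A20-WT the A20-KO-labelled libraries had a log2 difference of 0.37 (95% interval 0.09 to 0.66), with a limma adjusted p of 0.064, which became 0.037 without A20-WT replicate 3. The log2 difference between A20-OE and A20-WT was -0.27 (95% interval -0.56 to 0.02, limma adjusted p = 0.14), and 0.023 was its adjusted p without A20-WT replicate 1. The ratio of MICB to MICA within a library, which no library scaling can alter, was 1.81, 1.47 and 1.35 in A20-WT. It was 0.93, 0.911 and 0.759 in the A20-KO-labelled libraries and 0.861, 0.873 and 0.768 in A20-OE. MICB thus exceeded MICA in each A20-WT library and in none of the other 6, and the ratio of A20-OE overlapped that of the A20-KO-labelled libraries.

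ULBP2 (ENSG00000131015, chr6:149942000-149949235, plus strand) encodes a lipid-anchored NKG2D ligand in a separate cluster of chromosome 6. ULBP2 was at 7.97, 6.97 and 8.06 FPKM in A20-WT, at 13.8, 10.9 and 13.2 in the A20-KO-labelled libraries, and at 13.2, 12.2 and 14.1 in A20-OE. All 6 libraries of the latter groups lay above all 3 of A20-WT, and those 2 groups overlapped. ULBP2 rose by 64.6% in the A20-KO-labelled libraries (log2 fold change 0.71, SE 0.12, limma adjusted p = 0.0033) and by 71.7% in A20-OE (0.77, SE 0.12, limma adjusted p = 0.0012), each against A20-WT. Between A20-OE and the A20-KO-labelled libraries the log2 difference was 0.07 (95% interval -0.2 to 0.33, limma adjusted p = 0.77). It changed sign, to -0.04, without A20-KO replicate 2. Of the 150-base windows in ULBP2 transcripts, 4.25% also occur in RAET1L, a close relative, so a small part of the reads could belong to either gene. RAET1L itself stood at 1.51, 1.46 and 2.16 FPKM in the 3 groups.

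Summed, MICA, MICB and ULBP2 reached 38.7 ± 1.76 FPKM (SD, n = 3) in A20-WT, 42.2 ± 0.808 in the A20-KO-labelled libraries and 31.8 ± 2.26 in A20-OE. The 3 groups did not overlap in this sum, which was 37.1, 38.5 and 40.6 FPKM in the A20-WT libraries, 42.7, 41.3 and 42.7 in the A20-KO-labelled ones and 31.5, 29.7 and 34.2 in A20-OE. Its make-up differed as well. MICB gave 48.5% of the sum in A20-WT, 32.5% in the A20-KO-labelled libraries and 26.6% in A20-OE, and ULBP2 gave 19.8%, 29.8% and 41.5%. The share of MICA was between 31.7% and 37.6% in the 3 group means. No test was run on the sums, and an exact two-sided permutation test of 3 libraries against 3 cannot give a p below 0.1.

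**Figure D3:**
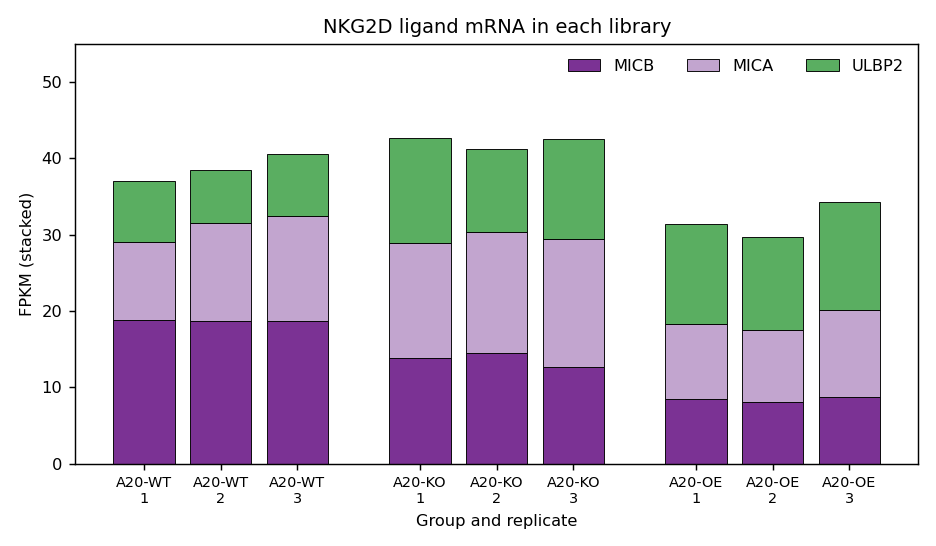
Stacked FPKM (y axis, from 0) of MICB, MICA and ULBP2 in each of the 9 libraries (x axis, by group and replicate). MICB is the largest block in A20-WT (48.5% of the sum on average) and ULBP2 in A20-OE (41.5%).

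PVR and NECTIN2, which share the receptors DNAM-1 and TIGIT, moved in opposite directions. PVR (ENSG00000073008, chr19:44643798-44663583, plus strand) was at 22.4, 24.3 and 26.2 FPKM in A20-WT, at 15.8, 16.6 and 14.6 in the A20-KO-labelled libraries, and at 15.9, 16.8 and 16.6 in A20-OE. All A20-WT libraries lay above all the others. PVR fell by 35.5% in the A20-KO-labelled libraries (log2 fold change -0.63, SE 0.09, limma adjusted p = 0.0018) and by 32.3% in A20-OE (-0.56, SE 0.09, limma adjusted p = 0.0018), each against A20-WT. The difference between A20-OE and the A20-KO-labelled libraries was 0.07 (95% interval -0.13 to 0.28, limma adjusted p = 0.67), so a change of more than 0.28 either way lay outside the interval.

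NECTIN2 (ENSG00000130202, chr19:44846175-44889228, plus strand) had the highest level of the 9 ligands in each group. It was measured at 23.4, 28.3 and 34.3 FPKM in A20-WT, at 42.2, 38.5 and 44.0 in the A20-KO-labelled libraries, and at 38.2, 35.2 and 44.4 in A20-OE. The A20-WT libraries were widely spread, and the highest of them lay just below the lowest A20-OE library. NECTIN2 rose by 45.0% in the A20-KO-labelled libraries (log2 fold change 0.55, SE 0.15, limma adjusted p = 0.027) and by 37.0% in A20-OE (0.46, SE 0.15, limma adjusted p = 0.04), each against A20-WT. The first call was lost without A20-WT replicate 1 or 2 (limma adjusted p 0.059 and 0.074) and without A20-KO replicate 1 or 3 (0.081 and 0.083). The second was lost without any single library except A20-WT replicate 3 (limma adjusted p 0.051 to 0.13). Both were also lost with no filter on low values (limma adjusted p 0.11 and 0.15) and on only the 2 groups compared (0.067 and 0.084). With no variance trend in the fit they were lost as well (limma adjusted p 0.055 and 0.073). A20-OE and the A20-KO-labelled libraries differed by -0.09 (95% interval -0.42 to 0.25, limma adjusted p = 0.76). The ratio of NECTIN2 to PVR was 1.04, 1.16 and 1.31 in A20-WT, 2.66, 2.32 and 3.02 in the A20-KO-labelled libraries, and 2.4, 2.09 and 2.67 in A20-OE. No A20-WT library came near the other 6 in this ratio, while the summed FPKM of both genes overlapped between groups (53.0 ± 7.36, 57.3 ± 1.81 and 55.7 ± 4.67, SD, n = 3).

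Neither B7 ligand passed the limma test in any comparison. At an unadjusted limma p under 0.05 only CD276 passed, in the A20-KO-labelled libraries against A20-WT, and limma-voom on the recovered reads called neither. CD274 (ENSG00000120217, chr9:5450503-5470566, plus strand) was low in this line: 0.696, 0.623 and 0.594 FPKM in A20-WT, 0.881, 0.861 and 0.752 in the A20-KO-labelled libraries, and 0.614, 0.814 and 0.763 in A20-OE. The libraries labelled A20-KO lay above those of A20-WT, and A20-OE overlapped both. With 59 to 88 reads per library the log2 difference between the A20-KO-labelled libraries and A20-WT was 0.34 (95% interval -0.06 to 0.73, limma adjusted p = 0.21). The other differences were -0.17 (-0.57 to 0.23, limma adjusted p = 0.59) for A20-OE against the A20-KO-labelled libraries and 0.17 (-0.23 to 0.56, limma adjusted p = 0.53) for A20-OE against A20-WT. A log2 difference of 1 in either direction lay outside all 3 intervals.

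CD276 (ENSG00000103855, chr15:73683966-73714518, plus strand) was far more abundant. Its level was 17.0, 20.1 and 23.5 FPKM in A20-WT, 24.6, 23.6 and 25.0 in the A20-KO-labelled libraries, and 22.6, 21.3 and 25.0 in A20-OE. A20-WT replicate 1 was the lowest library for CD276 and also the lowest A20-WT library for PVR, NECTIN2 and MICA. The libraries labelled A20-KO differed from A20-WT by 0.28 on the log2 scale (95% interval 0.01 to 0.56, limma adjusted p = 0.13), and without A20-WT replicate 3 the value became 0.4 with an adjusted p of 0.035. A20-OE differed from the A20-KO-labelled libraries by -0.09 (-0.37 to 0.18, limma adjusted p = 0.69) and from A20-WT by 0.19 (-0.09 to 0.47, limma adjusted p = 0.28).

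LGALS9 and TNFRSF14 were the lowest of the 9. LGALS9 (ENSG00000168961, chr17:27629798-27649560, plus strand) had 36, 28 and 40 reads in A20-WT, 71, 69 and 94 in the A20-KO-labelled libraries, and 52, 86 and 67 in A20-OE. In FPKM this was 0.243 ± 0.0429 (SD, n = 3), 0.569 ± 0.119 and 0.502 ± 0.109, and no A20-WT library reached another group. LGALS9 mRNA was 2.34-fold higher in the A20-KO-labelled libraries (log2 fold change 0.96, SE 0.25, limma adjusted p = 0.023) and 2.06-fold higher in A20-OE (0.8, SE 0.25, limma adjusted p = 0.035) than in A20-WT. The first call was lost without A20-WT replicate 2, A20-KO replicate 1 or A20-KO replicate 3 (limma adjusted p 0.071, 0.053 and 0.072). The second was lost without A20-WT replicate 1 or 2 (0.053 and 0.1), A20-KO replicate 1 (0.052) or A20-OE replicate 2 or 3 (limma adjusted p 0.11 and 0.084). It was also lost with a pseudocount of 1 (0.05), with no filter (0.059) and on only the 2 groups compared (limma adjusted p 0.054). A20-OE against the A20-KO-labelled libraries gave -0.16 (95% interval -0.71 to 0.4, limma adjusted p = 0.74). LGALS9 shares 5.15% of its exonic bases with AC015688.4 on the same strand, and 3.37% of its 150-base windows with that gene or LGALS9DP, while LGALS9B had at most 4 reads in a library and LGALS9C none.

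TNFRSF14 (ENSG00000157873, chr1:2555639-2565382, plus strand) had 0, 4 and 3 reads in A20-WT, 9, 5 and 2 in the A20-KO-labelled libraries, and 5, 7 and 6 in A20-OE. It was therefore below the filter, and 13.4% of its exonic bases overlap TNFRSF14-AS1 on the opposite strand, which unstranded counting could not separate. Fitted with no filter, its limma adjusted p was 0.72, 1 and 0.4 in the 3 comparisons. HVEM mRNA was at the limit of what this depth shows in every group.

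By level, the A20-WT order was NECTIN2 (28.7 FPKM), PVR (24.3), CD276 (20.2), MICB (18.7), MICA (12.3), ULBP2 (7.67), CD274 (0.638), LGALS9 (0.243) and TNFRSF14 (0.015). Neighbours from NECTIN2 to MICB overlapped between libraries, and the steps below MICB did not. In the A20-KO-labelled libraries the order was NECTIN2 (41.6), CD276 (24.4), MICA (15.9), PVR (15.7), MICB (13.7) and ULBP2 (12.6), with MICA and PVR, and MICB and ULBP2, overlapping. In A20-OE it was NECTIN2 (39.3), CD276 (22.9), PVR (16.5), ULBP2 (13.2), MICA (10.2) and MICB (8.43), with no neighbours overlapping. The 3 lowest kept their order in every group. MICB therefore moved from the fourth to the sixth place and ULBP2 from the sixth to the fourth between A20-WT and A20-OE.

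Other ligands of T-cell and NK-cell receptors, from a list of 66 genes of which 39 were tested, showed 12 that rose and 4 that fell in the A20-KO-labelled libraries against A20-WT, where 11.3% of all genes were higher and 11% lower. In A20-OE against the A20-KO-labelled libraries 1 rose and 3 fell (4.43% and 4.54% of all genes), and in A20-OE against A20-WT 16 rose and 4 fell (15.7% and 15.4%). The median log2 fold change of the 39 was 0.26, 0.15 and 0.32. Among nectins, NECTIN4 rose from 0.611 to 2.58 FPKM between A20-WT and the A20-KO-labelled libraries (log2 fold change 1.94, SE 0.19, limma adjusted p = 0.00033) and to 5.0 in A20-OE (2.86 against A20-WT, SE 0.19, limma adjusted p = 1.7e-05). The step from 2.58 to 5.0 (log2 fold change 0.92, limma adjusted p = 0.021) lost its call without any 1 of the 6 libraries compared (0.05 to 0.096). NECTIN3, a binding partner of PVR and NECTIN2, fell from 11.3 to 2.91 FPKM (-1.9, SE 0.21, limma adjusted p = 0.00061) and stood at 4.04 in A20-OE (-1.43 against A20-WT, limma adjusted p = 0.0012). NECTIN3 and NECTIN4 thus moved in opposite directions, as PVR and NECTIN2 did.

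Of the 5 other NKG2D ligands, all tested, ULBP1, ULBP3 and RAET1E passed in no comparison. In A20-KO against A20-WT, A20-OE against A20-KO and A20-OE against A20-WT, 11.3%, 4.43% and 15.7% of all genes were higher. Those lower were 11%, 4.54% and 15.4%. RAET1G, a ULBP family member, rose from 0.62 to 1.27 FPKM in the A20-KO-labelled libraries (log2 fold change 0.97, SE 0.24, limma adjusted p = 0.021) and fell to 0.462 in A20-OE against them (-1.29, SE 0.24, limma adjusted p = 0.016). The rise was lost without A20-WT replicate 1 or 2 or any 1 A20-KO-labelled library (limma adjusted p 0.056 to 0.071). The fall was lost without A20-KO replicate 1 or 3 or A20-OE replicate 1 (limma adjusted p 0.057, 0.055 and 0.076). RAET1L rose in A20-OE against A20-WT (0.5, SE 0.16, limma adjusted p = 0.046), which was lost without any 1 library except A20-WT replicate 1 and A20-KO replicate 3 (0.06 to 0.15) and with limma-voom on the recovered reads (0.16). RAET1G and MICA thus shared the order of groups, with the A20-KO-labelled libraries highest.

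In the TNF family, CD70, the ligand of CD27, rose from 0.881 to 3.83 FPKM in the A20-KO-labelled libraries (log2 fold change 1.96, SE 0.2, limma adjusted p = 0.0004) and stood at 4.54 in A20-OE (2.24, limma adjusted p = 7.4e-05). TNFSF9, the ligand of 4-1BB, rose from 34.0 to 60.8 FPKM (0.85, SE 0.16, limma adjusted p = 0.0052) and stood at 70.2 in A20-OE (1.06, limma adjusted p = 0.001). CD70 and TNFSF9 are costimulatory ligands. With CD40, a receptor in the same list (0.39, limma adjusted p = 0.026), 3 of its 5 tested genes rose in the A20-KO-labelled libraries, beside 11.3% of all genes. The list holds 10 genes, and the other 5 were below the filter. Among ligands of TIM-3, LAG-3 and related receptors, LGALS3 rose from 14.6 to 34.1 FPKM (1.22, SE 0.13, limma adjusted p = 0.00045). LGALS1 rose from 243.0 to 431.0 FPKM (0.81, SE 0.18, limma adjusted p = 0.013) and was at 533.0 in A20-OE (1.13, limma adjusted p = 0.0017). HMGB1, a nuclear protein that also binds TIM-3, fell from 73.3 FPKM in A20-WT to 56.7 in the A20-KO-labelled libraries (-0.37, SE 0.09, limma adjusted p = 0.021). It was at 43.9 in A20-OE (-0.74 against A20-WT, limma adjusted p = 0.00047). The step from 56.7 to 43.9 (-0.37, SE 0.09, limma adjusted p = 0.044) lost its call without A20-WT replicate 2 or any 1 of the 6 libraries compared (0.057 to 0.15). CD200 had 2 reads in all in A20-WT, 35 in the A20-KO-labelled libraries and 61 in A20-OE, and it passed only in A20-OE against A20-WT (limma adjusted p = 0.011).

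Adhesion ligands went both ways. ICAM1, the LFA-1 ligand of the immune synapse, fell from 2.25 to 0.71 FPKM in the A20-KO-labelled libraries (log2 fold change -1.52, SE 0.19, limma adjusted p = 0.00093) and was at 0.678 in A20-OE (-1.57, limma adjusted p = 0.00035). F11R rose from 12.8 to 17.1 FPKM (0.41, SE 0.09, limma adjusted p = 0.015), which was lost without A20-WT replicate 2 or A20-KO replicate 1 (limma adjusted p 0.054 and 0.05), and was at 20.3 in A20-OE (0.66, limma adjusted p = 0.00089). The non-classical HLA genes both rose: HLA-E, the ligand of NKG2A, from 49.3 to 76.9 FPKM (0.65, SE 0.11, limma adjusted p = 0.0045) and HLA-F from 1.54 to 4.58 (1.5, SE 0.15, limma adjusted p = 0.00038). In A20-OE they stood at 81.9 and 4.15 FPKM, above A20-WT by 0.74 and 1.37 (limma adjusted p = 0.0014 and 0.00022). Of the B7 and butyrophilin relatives, 1 of 10 tested rose in the A20-KO-labelled libraries, BTN3A3, from 0.832 to 1.64 FPKM (0.89, SE 0.15, limma adjusted p = 0.0037), and 5 of 10 rose in A20-OE against A20-WT, led by BTN3A3 (1.07, limma adjusted p = 0.00083) and BTNL9 (0.87, limma adjusted p = 0.0024). Among all genes tested, 11.3% and 15.7% were higher in these comparisons. None of the 10 relatives passed in A20-OE against the A20-KO-labelled libraries, where 2 had an unadjusted limma p under 0.05 and limma-voom called 0. There 4.43% of all genes were higher and 4.54% lower. PCNA, a replication protein that can engage NKp44 at the surface, fell from 269.0 to 119.0 FPKM (-1.17, SE 0.13, limma adjusted p = 0.00055) and to 78.7 in A20-OE (-1.78 against A20-WT, limma adjusted p = 3e-05). Its second step (-0.6, limma adjusted p = 0.025) was lost without A20-KO replicate 1 or 3 (0.086 and 0.078) or A20-OE replicate 1 or 2 (limma adjusted p 0.11 for each).

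**Figure D4:**
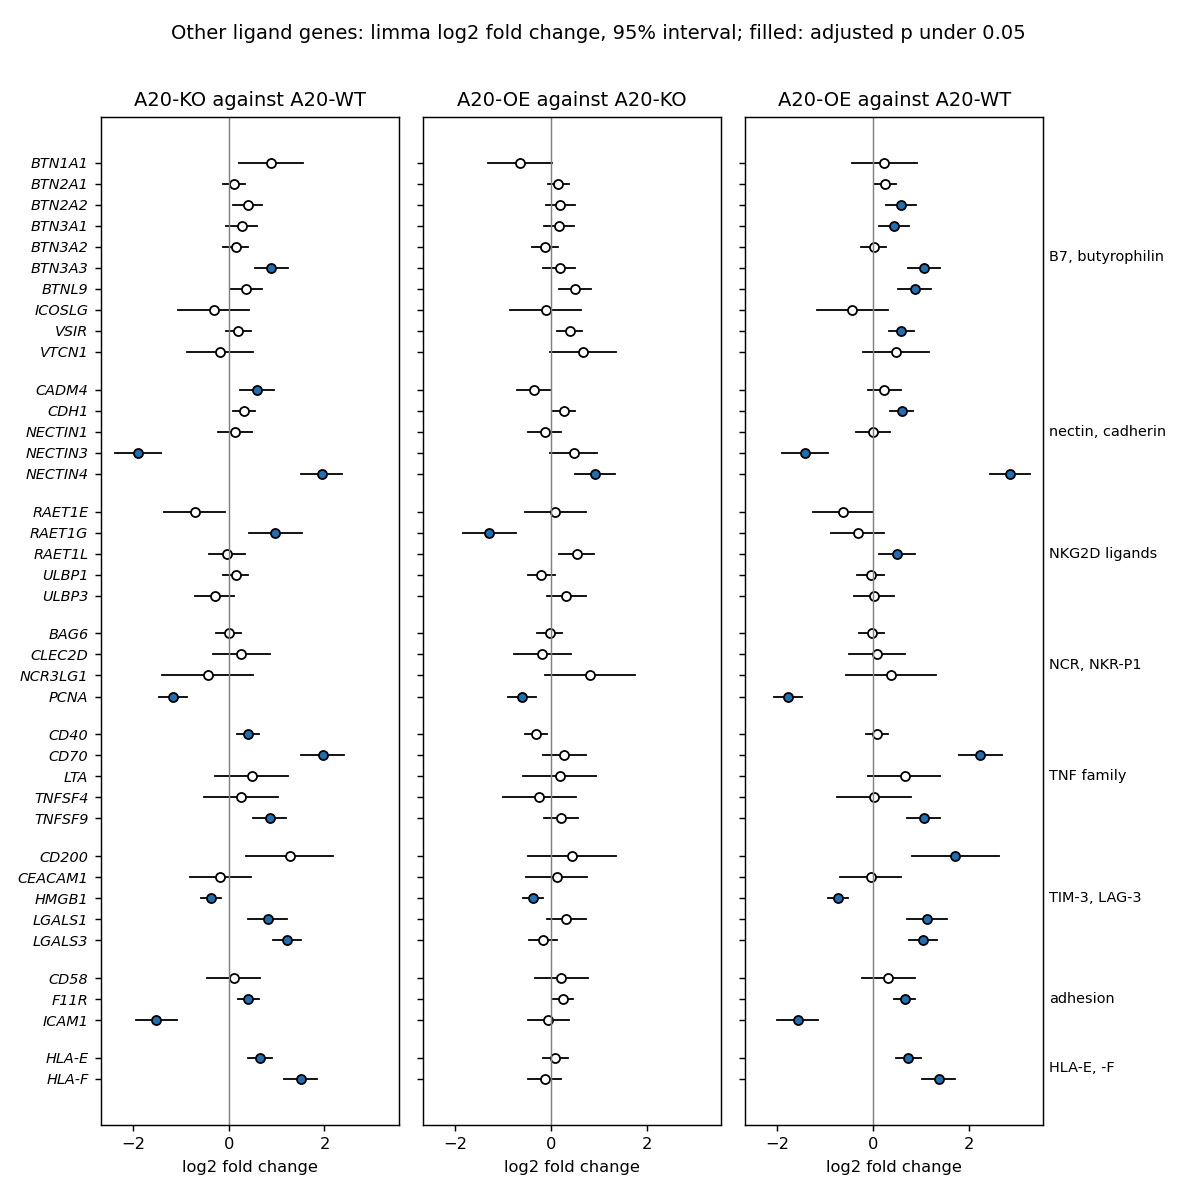
limma log2 fold change (x axis) with its 95% interval for the 39 tested genes among the other ligands (y axis, grouped by receptor family), in each of the 3 comparisons, with filled points at an adjusted p under 0.05. NECTIN4 (2.86) and CD70 (2.24) lie farthest to the right and PCNA (-1.78) and ICAM1 (-1.57) among the farthest to the left in A20-OE against A20-WT.

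Of the 23 genes known to regulate PD-L1, all tested, none rose and 2 fell in the A20-KO-labelled libraries against A20-WT, beside 11.3% and 11% of all genes. At an unadjusted limma p under 0.05 these counts were 2 and 5, and with limma-voom 0 and 4. NFKB1, which encodes the p50 precursor of NF-κB, fell from 7.48 to 5.17 FPKM (log2 fold change -0.53, SE 0.11, limma adjusted p = 0.0085) and to 3.39 in A20-OE (-1.12 against A20-WT, limma adjusted p = 0.00011). COPS5, a deubiquitinase that stabilises PD-L1, fell from 7.98 to 5.91 FPKM (-0.43, SE 0.11, limma adjusted p = 0.022), which was lost without A20-WT replicate 2 or 3 or A20-KO replicate 2 (limma adjusted p 0.075, 0.053 and 0.067). In A20-OE against the A20-KO-labelled libraries 1 of the 23 rose and 3 fell, beside 4.43% and 4.54% of all genes. STAT3 rose from 13.1 to 19.1 FPKM (0.55, SE 0.13, limma adjusted p = 0.037), and NFKB1 fell (-0.59, limma adjusted p = 0.014). NFKB1 lost this call without A20-KO replicate 1 or A20-OE replicate 1 (limma adjusted p 0.063 and 0.056). STAT3 lost it without A20-WT replicate 2, A20-KO replicate 1 or any 1 A20-OE library (0.066 to 0.13), and passed in A20-OE against A20-WT (0.96, limma adjusted p = 0.00075). In A20-OE against A20-WT 4 of the 23 rose and 5 fell, beside 15.7% and 15.4% of all genes.

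Surface MICA, MICB and ULBP2 are cut off by metalloproteases, and of the 8 tested genes of shedding 1 rose in the A20-KO-labelled libraries, 2 in A20-OE against them and 3 in A20-OE against A20-WT. Among all genes tested, 11.3%, 4.43% and 15.7% were higher in these 3 comparisons and 11%, 4.54% and 15.4% lower. None of the 8 fell at an adjusted p under 0.05 with limma, while 2, 0 and 1 fell at an unadjusted p and 1, 0 and 1 with limma-voom. TIMP3, an inhibitor of ADAM proteases, rose from 2.56 to 5.58 FPKM (log2 fold change 1.1, SE 0.11, limma adjusted p = 0.00032) and again to 9.69 in A20-OE (0.79, SE 0.11, limma adjusted p = 0.0044). ADAM17 was at 4.12 FPKM in A20-WT and 3.82 in the A20-KO-labelled libraries, and rose to 6.91 in A20-OE against the latter (0.86, SE 0.16, limma adjusted p = 0.017). This call was lost without A20-OE replicate 1 or 2 (limma adjusted p 0.081 and 0.077), and ADAM17 also rose in A20-OE against A20-WT (0.73, limma adjusted p = 0.0088). A protease and its inhibitor thus both rose in A20-OE, and shed protein was not measured.

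Across the 9 libraries, the protein-coding gene outside the lists whose log2(FPKM + 0.1) ran most like that of MICB was PSAT1, of serine synthesis (Pearson r = 0.995 over 9 libraries, 10901 genes searched). For PVR it was NOLC1, a nucleolar protein gene (0.992), for NECTIN2 it was VASN (0.994), for MICA it was PARD6A (0.989), and for CD276 it was PIP4P1 (0.988). ULBP2 ran most like TMEM44 (0.985), LGALS9 like TMEM42 (0.983), TNFRSF14 like NTN1 (0.911) and CD274 like OR51B4 (0.904). These are the highest values of a large search over 3 groups, they share the libraries and their scaling, and they are given as a description. PSAT1 stood at 90.8, 56.7 and 33.4 FPKM in A20-WT, the A20-KO-labelled libraries and A20-OE, the same order as MICB, and NOLC1 at 135.0, 76.6 and 77.1, the same as PVR.

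The 14 genes of receptors for these ligands summed to 2.04 to 3.26 FPKM per library. LAG3 was the highest of them, with 336, 487 and 331 reads in the 3 groups, more than CD274 or LGALS9 had, and CD226, which encodes DNAM-1, had 99, 84 and 94 reads. KLRK1, which encodes NKG2D, had 10, 4 and 1, and the 14 leukocyte markers to 1.31 to 2.19. CD3D had 0 reads in every library and PTPRC 9, 1 and 0 reads per group. The 9 markers of fibroblasts and endothelium summed to 4.77 to 5.98 FPKM in A20-WT, 12.8 to 15.3 in the A20-KO-labelled libraries and 11.4 to 12.6 in A20-OE. Most of this sum was COL1A1 (5.32, 13.3 and 11.7 FPKM). Of the other 8, PECAM1 had 16, 67 and 66 reads per group, COL3A1 8, 26 and 18, VWF 84, 91 and 140, PDGFRB 28, 24 and 35, and CDH5 6, 0 and 1, while COL1A2, DCN and LUM had at most 4. The 10 epithelial markers summed to 1130.0 to 1530.0 FPKM in A20-WT and 1760.0 to 2320.0 in both other groups, where KRT19 went from 434.0 to 878.0 and 903.0. The markers did not all move this way. KRT8 had 193580, 266829 and 261442 reads per group, while EPCAM had 24426, 21200 and 18824 and CDX2 1769, 1650 and 1719. Of the 7 tested, 1 rose and 0 fell in the A20-KO-labelled libraries against A20-WT, beside 11.3% and 11% of all genes. The higher sums of fibroblast, endothelial and epithelial markers ran with the higher ULBP2, NECTIN2 and LGALS9 and the lower PVR of the same libraries. Their part in these results was not tested. With mitochondrial genes left out of the scaling, every call of a ligand remained and MICA passed in addition in the A20-KO-labelled libraries against A20-WT (0.38, limma adjusted p = 0.035).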

How the data were processed

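Per the Methods and the submitters' processing notes, the authors aligned paired-end reads (HISAT2 2.0.5), counted them on genes (featureCounts 1.5.0-p3) and deposited FPKM by gene length. They tested counts with DESeq2, which was not run here. The strand setting and genome build are not given in the sources used here. All 58735 identifiers are in GENCODE 29, and 99.9% have its GRCh38 coordinates. FPKM times length was a whole multiple of 1 read (within 0.05) for 100% of values, and the deposited FPKM already carried a median-of-ratios scaling.

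limma (3.58.1, R 4.3.3) was fitted with a variance trend to log2(FPKM + 0.1) for genes with mean FPKM of at least 0.1, with 3 groups in 1 fit and Benjamini-Hochberg adjustment. The test was checked on simulated reads for A20-KO against A20-WT. The changed genes were drawn from those with a mean of at least 1 FPKM, and the same setting of spread was used for all genes. It recovered 17 of 100 genes changed by a log2 fold change of 0.5 and 82 of 100 changed by 1, with 11 false calls. CD274 and LGALS9 lie below that mean, so these rates do not apply to them. On the same simulated reads limma-voom recovered 41 and 94, with 3 false calls. A gene that did not pass may therefore still have changed by a small amount. Intervals cover the spread between libraries. Alternatives were pseudocounts of 1 and 0.01, no filter, a mean of at least 1, other scalings, only the 2 groups compared, a replicate block, no trend, limma-voom on reads, each library left out, and the study's 2-fold limit. The ligands and all lists were chosen with earlier results of these data known. Of each list and comparison up to 2 genes that passed are named, those with the largest changes. CD40, and HMGB1 against A20-WT, are given in addition. Genes named for not passing were chosen after their values were seen. The labels give no pairing, and replicate numbers were not taken as pairs.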

Additional observations from a re-analysis of the deposited data

How the results depend on the processing

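Of 450 recomputed values of the 8 tested ligands (24 results under up to 19 alternatives), 408 kept their direction and their side of the threshold, 35 kept the direction but no longer passed, 6 newly passed and 1 changed sign, ULBP2 in A20-OE against the libraries labelled A20-KO without A20-KO replicate 2 (-0.04 to 0.13 with each library left out). CD274 and LGALS9 had 28 to 94 reads per library and TNFRSF14 at most 9. Of the named other genes and TNFAIP3, 13 of 45 results lost their call under some alternative and none changed sign. The losses given above for these genes are mostly those with a library left out. Several calls were also lost with no filter, on only the 2 groups compared or with no trend. LGALS1 in A20-KO against A20-WT was 1 of these (limma adjusted p 0.1 with no filter). The cause of these moves was not tested. The alternative of median-of-ratios scaling had a factor of 1 in every library, so it repeated the main fit and could not move any value. Some others, such as no trend or leaving out a library of the group not compared, could alter the adjusted p but not the log2 fold change. The count of values that kept their side thus includes some that could not move.

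The number of ligands that passed, 5, 2 and 5 in A20-KO against A20-WT, A20-OE against A20-KO and A20-OE against A20-WT, became 0, 0 and 1 with the 2-fold limit. With no filter it was 1 and 3 in the last 2 comparisons, and on only the 2 groups compared 3 in the last. With each library left out it ran from 3 to 7, 1 to 2 and 3 to 5. The low of 3 came without A20-WT replicate 2, A20-KO replicate 1 or A20-KO replicate 3 in the first comparison, and without A20-WT replicate 2, A20-KO replicate 1, A20-OE replicate 2 or A20-OE replicate 3 in the last. The low of 1 came without any 1 A20-KO library or A20-OE replicate 1 or 2. Of the 70 tested other ligands and regulators, 8, 1 and 13 passed with the 2-fold limit, beside 6.99%, 2.39% and 11.9% of all genes. Without that limit 19, 10 and 32 passed, beside 11.3%, 4.43% and 15.7% of all genes higher and 11%, 4.54% and 15.4% lower. In A20-OE against A20-KO that number was 2 with no filter, 5 with no trend, and 1 to 18 with a library left out: 18 without A20-WT replicate 1, 6 without A20-WT replicate 2, 2 and 4 without A20-KO replicates 1 and 3, and 1, 3 and 5 without A20-OE replicates 1, 2 and 3. It ran from 14 to 21 and from 29 to 34 in the other comparisons.

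Over all genes 4816, 1940 and 6735 passed, and 1512, 517 and 2571 with the 2-fold limit, of which 70.3%, 65.2% and 64.6% were higher. With no filter 2972 and 801 passed in the first 2 comparisons, on only the 2 groups 3060 in the first, and with no trend 1224 in the second. With a library left out the numbers ran from 3110 to 4964, from 454 to 3237 and from 4828 to 7000. In A20-OE against A20-KO 49.4% of the calls were higher, and 38.1% with limma-voom.

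The deviations of same-numbered libraries correlated at -0.123 to 0.325 (mean 0.12), over 0.1 in 4 of 9 pairs. Those of different-numbered libraries correlated at -0.33 to 0.207 (mean -0.0593), over 0.1 in 4 of 18 pairs. The labels give no pairing, so the numbers were not taken as pairs in the main fit. Whether libraries of the same number share a batch was not tested. With the replicate block 5602, 2577 and 7348 genes passed, and MICA newly passed in A20-KO against A20-WT (limma adjusted p = 0.027).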

Other observations

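Some genes of NK cells and T cells had reads in this carcinoma line, picked out here after their values were seen. KLRD1, which encodes CD94, had 9 reads in the A20-WT libraries together, 97 in those labelled A20-KO and 72 in A20-OE. GNLY, which encodes granulysin, had 9, 57 and 52. LAG3, an inhibitory receptor, averaged 1.47, 2.22 and 1.52 FPKM in the same order, and CD8A 0.335, 0.477 and 0.511 FPKM. CD3D had no read in any library.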
